A study of Mus musculus with 12 samples.

Results

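The immediate early and stress response genes were followed in mouse hair follicle stem cells with and without the transcription factor Foxc1. The set held 39 genes, chosen by name, of the 23735 gene rows in each deposited table, and every member was found on a single row of each table. The cells had been sorted from dorsal skin, and mRNA sequencing of 12 libraries gave the values of 7 groups. In growing follicles (anagen, postnatal day 30), 2 inducible knockout libraries (iKO) were set against 2 heterozygous libraries (Het), all from males whose strain was a mix of Black Swiss with C57BL/6. The tamoxifen-dependent driver Sox9CreER was present in iKO and Het mice alike, so that Het cells were exposed to tamoxifen and Cre as well, and the label does not say whether heterozygous refers to the Foxc1 allele. In resting follicles (second telogen), 2 conditional knockout libraries made with K14Cre (cKO), which acts in keratin 14 expressing epithelium, were set against 2 wild-type libraries (WT). Each of these groups held a Black Swiss male at day 42 and a Black Swiss female at day 46. A further 2 iKO libraries came from second telogen males of the mixed strain at day 60, which had no control group of their own stage and strain. Agouti females labelled Shh-Het, titled as wild type, gave 1 library of an early growth substage (anagen II, about day 26) and 1 library of first telogen (about day 23).

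Immediate early genes are transcribed within minutes of a growth factor, cytokine, stretch or stress signal, without new protein synthesis. Signals reach them through MAP kinase cascades and the promoter-bound factors SRF with its ternary complex partners and CREB, and many of their products are themselves transcription factors or feedback inhibitors of the same signals. In skin they are known from wounding and from the start of growth in cultured keratinocytes, and the dissociation of tissue into single cells is known to induce them too. Members are described by role as AP-1 and related bZIP subunits, EGR and NR4A factors, IER and CSRNP proteins, KLF and MYC factors, feedback inhibitors, antiproliferative BTG and TOB proteins, GADD45 proteins, matrix and cytoskeletal genes that respond to YAP and SRF, and Txnip.

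Each table holds 1 pooled FPKM value (a level scaled to transcript length and library size) per group, so values can be compared between genes and between groups of a table, but the spread between the 2 libraries of a group cannot be shown. Rose, fell, higher and lower are used below of genes at the authors' q below 0.05, and ± is a standard error (SE) obtained as the deposited log2 fold divided by the deposited test statistic. Foxc1 itself was lower in the knockouts, with 1.40 FPKM in iKO against 23.9 FPKM in Het anagen cells (17.0-fold) and 1.59 FPKM in cKO against 26.5 FPKM in WT telogen cells (16.65-fold). In iKO cells of second telogen it stood at 3.17 FPKM, against 27.5 FPKM in WT cells of the joint table. The bulge stem cell markers Cd34, Lhx2, Sox9 and Lgr5 were present in all 7 groups of the joint table, with Cd34 between 129.2 and 882.6 FPKM. Krt5 was listed at 0 in all 5 replicated groups and Krt15 in 3 of them, although every keratinocyte of this layer is known to express Krt5, so these zeros are not read as levels. Of the markers of other cells, Pdgfra reached at most 0.36 FPKM, Ptprc at most 0.58 FPKM and Pecam1 at most 1.45 FPKM in the replicated groups. Other genes of the same lists were higher there, with Col6a1 up to 209.5 FPKM, Mmp2 up to 95.7 FPKM, Col1a1 up to 62.9 FPKM, Cd74 up to 85.2 FPKM and Cspg4 up to 74.9 FPKM. Pdgfra was higher in the Shh-Het libraries, with 173.6 FPKM of Pdgfra in first telogen and 50.3 FPKM in anagen II. In such sorted bulk samples, fewer cells with a transcript and less of it per cell cannot be told apart.

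The promoters of several members carry the sequence elements through which this response is known to run. Of the genes shown here, Egr2, Btg2, Maff and Ppp1r15a fell in second telogen cKO cells. Zfp36 and Dusp1 did not pass the test in the telogen table, but were lower in cKO cells in the joint table. In anagen iKO cells, Egr2 and Maff rose while Ppp1r15a and Dusp1 fell. A link between these elements and the levels was not tested. RefSeq start sites on GRCm38.p6 were matched for 32 of the 39 members, giving 41 windows of 250 bases before to 50 bases after the start. The CArG box, the element bound by SRF, was found on either strand in 5 of these windows (12.2%), against 1.63% of 32851 mouse windows. These windows belonged to only 2 of the 32 genes, Egr2 and Zfp36, since a gene with several start sites has several windows. The cAMP response element TGACGTCA, bound by CREB and ATF proteins, was found in 4 windows (9.76% against 1.79% of all), those of Btg2, Dusp1, Maff and Ppp1r15a. These elements are printed 5′ to 3′ along the gene's strand, with the motif in capitals, at chr7:28379267-28379296 (minus strand) for Zfp36, chr10:67537484-67537513 and chr10:67537787-67537816 (plus strand) for 2 start sites of Egr2, chr1:134079279-134079356 (minus strand) for Btg2, chr17:26508573-26508650 (minus strand) for Dusp1, chr15:79347481-79347508 (plus strand) for Maff and chr7:45526269-45526290 (minus strand) for Ppp1r15a.
Zfp36, CArG box: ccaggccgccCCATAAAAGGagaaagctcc
Egr2, CArG box, first start site: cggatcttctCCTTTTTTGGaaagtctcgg
Egr2, CArG box, next start site: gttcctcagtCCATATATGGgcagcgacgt
Btg2, cAMP response element: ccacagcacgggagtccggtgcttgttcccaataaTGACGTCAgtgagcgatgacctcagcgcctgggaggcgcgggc
Dusp1, cAMP response element: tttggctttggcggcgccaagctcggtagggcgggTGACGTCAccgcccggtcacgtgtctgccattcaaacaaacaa
Maff, cAMP response element: gctggggcggTGACGTCActgcatgact
Ppp1r15a, cAMP response element: gcctctccggTGACGTCAgcac
The EGR motif GCGNGGGCG was found in 26.8% of the members' windows, against 5.55% of all windows. The forkhead motif TGTTTAC was found in 7.32% (Btg1, Junb and Txnip) against 3.65%, the AP-1 motif TGANTCA in 2.44% (Csrnp1) against 7.81%, and the TEAD motif GGAATG in 12.2% against 14.7%. All motifs were searched on both strands, and no printed element overlapped another motif of the search. A match describes letters in a window and does not show binding, and a window without a match says nothing about the factor.

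Across the joint table, the level of these genes separated resting from growing follicles. In 32 of the 39 members (82.1%), each of the 4 telogen groups lay above each of the 3 anagen groups, which held for 14.5% of the 14098 genes with at least 1 FPKM in a group. The 7 members without that order were Fosl2, Egr3, Ier5, Rhob and the 3 GADD45 genes. The summed FPKM of the members in second telogen was 9591 in cKO, 26814 in iKO and 21886 in WT cells. In anagen it was 2738 in iKO and 3440 in Het cells, and in the Shh-Het libraries it was 2751 in anagen II and 19779 in first telogen. The gene Fos, whose product pairs with JUN proteins in AP-1, made up between 8.62% and 22.8% of these sums. Fos had 1817 FPKM in cKO, 6112 FPKM in iKO and 4023 FPKM in WT cells of second telogen, and 2728 FPKM in first telogen. It had 357.3 FPKM in anagen iKO, 474.0 FPKM in anagen Het and 237.1 FPKM in anagen II cells. Its lowest telogen value, in cKO cells, was thus 3.83-fold above its highest anagen value. The iKO cells of second telogen held the highest level of 22 members, first telogen of 10, WT cells of second telogen of 5, and anagen II and anagen iKO of 1 each (Gadd45a and Gadd45b). For the iKO cells of second telogen this is 56.4% of the members, against 11.9% of the 14098 genes. For first telogen it is 25.6% against 21.8% and for WT cells of second telogen 12.8% against 12.5%, which is near the share of all genes. The cKO cells had the lowest value among the 4 telogen groups in 34 members, and still lay above both later anagen groups in 33. The share of all genes with either of these orders was not computed.

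**Figure D1:**
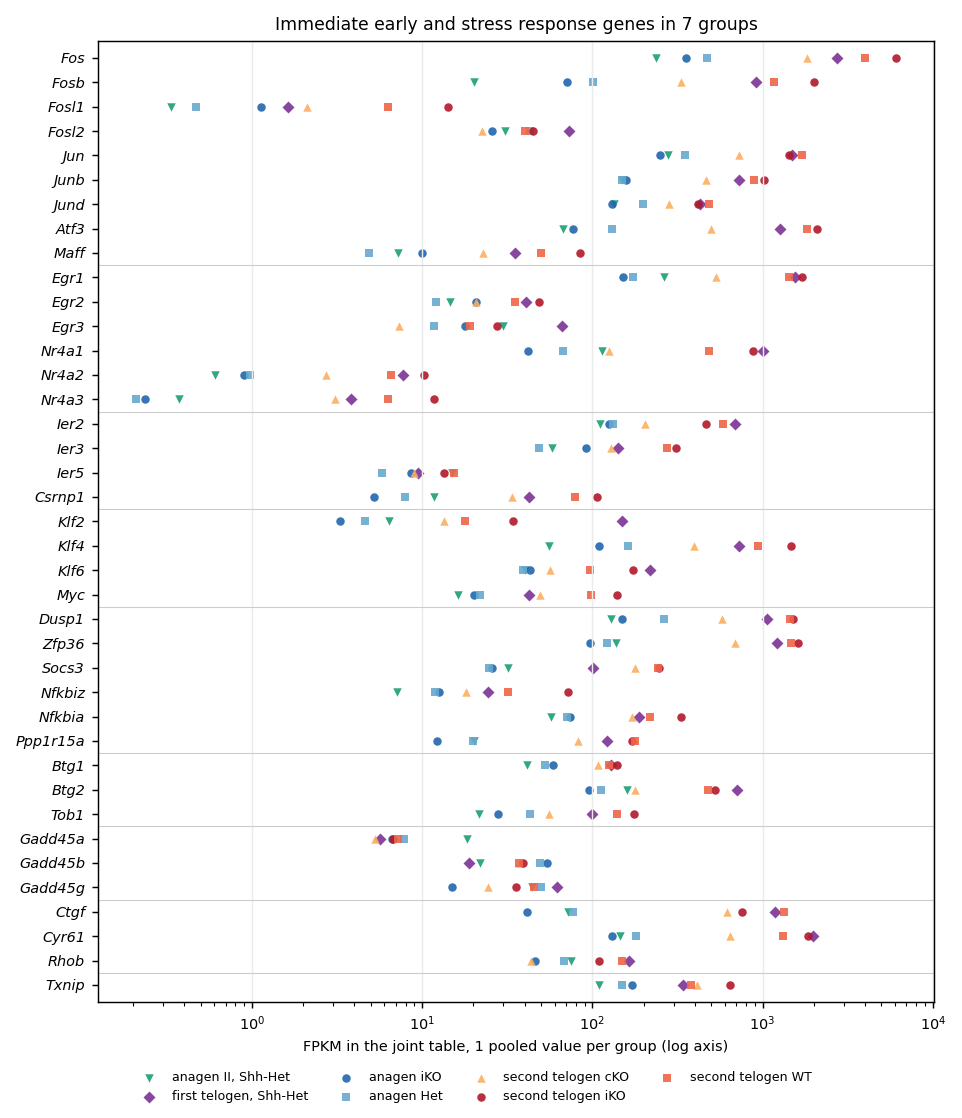
FPKM of the 39 members (rows, grouped by role) in the 7 groups of the authors' joint table on a log axis, with 1 pooled value per group and no error bars. The telogen groups (purple, orange, red) lie to the right of the anagen groups (green, blue) in 32 of 39 rows, and cKO cells (orange triangles) are the lowest telogen group in 34. The share of all genes with the latter order was not computed.

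Second telogen cells with the K14Cre knockout (cKO) had lower levels of many members than WT cells. In the authors' deposited telogen table, 19 of 39 members were lower and none higher in cKO than in WT cells, against 2.87% lower and 3.75% higher among all 13551 genes tested. Beyond the called genes, 38 of 39 members had the smaller value in cKO cells, the exception being Txnip. At an unadjusted deposited p (Cuffdiff) below 0.05, 28 had smaller and 0 had larger values. How many of all genes had smaller values in cKO cells, with or without that p, was not computed. The members' median of log2((FPKM + 1) ratio) was -1.09, against 0.00 over all tested genes. Beside this, all 12 genes of the cell cycle list were higher in cKO cells, and the list's summed FPKM in the joint table was 132.8 in cKO and 20.4 in WT cells.

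Among the 9 AP-1 and related bZIP subunits, 3 fell in cKO cells. Atf3, a stress-induced repressor of the ATF family, had 477.9 FPKM in cKO and 1748 FPKM in WT cells (log2 fold -1.87 ± 0.69, q = 0.0273). Maff, a small MAF protein, had 21.9 FPKM in cKO and 47.8 FPKM in WT cells (log2 fold -1.12 ± 0.30, q = 0.00159). Fosl2 had 21.6 FPKM in cKO and 38.5 FPKM in WT cells (log2 fold -0.84 ± 0.31, q = 0.0146). Fos and Fosb did not pass the test. Fos had 1744 FPKM in cKO and 3872 FPKM in WT cells (log2 fold -1.15 ± 1.16, q = 0.692), and Fosb had 317.7 FPKM in cKO and 1129 FPKM in WT cells (log2 fold -1.83 ± 0.68, q = 0.0778). Jun, Junb, Jund and Fosl1 also had smaller values in cKO cells without passing the test, between 1.74-fold and 3.02-fold.

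Of the 6 EGR and NR4A factors, zinc finger and orphan nuclear receptor transcription factors that respond quickly to growth signals, 4 fell. Nr4a1 had 120.2 FPKM in cKO and 465.6 FPKM in WT cells (log2 fold -1.95 ± 0.38, q = 0.00159), the largest fold in the set. Nr4a2 had 2.61 FPKM in cKO and 6.34 FPKM in WT cells (log2 fold -1.28 ± 0.42, q = 0.00159). Both members sit at very different levels and had folds of the same direction. Egr3 had 7.01 FPKM in cKO and 18.5 FPKM in WT cells (log2 fold -1.40 ± 0.34, q = 0.00159). Egr2, one of the CArG box genes printed above, had 20.0 FPKM in cKO and 33.6 FPKM in WT cells (log2 fold -0.75 ± 0.31, q = 0.0302). Egr1, the most abundant of the 6, had 509.9 FPKM in cKO and 1381 FPKM in WT cells and did not pass the test (q = 0.195), nor did Nr4a3 (q = 0.0558).

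All 4 IER and CSRNP genes fell, and this was the only role with every member called in this table. Ier2, a nuclear protein of the early response, had 195.5 FPKM in cKO and 561.5 FPKM in WT cells (log2 fold -1.52 ± 0.33, q = 0.00159). Ier3, known as a regulator of cell survival, had 123.1 FPKM in cKO and 264.3 FPKM in WT cells (log2 fold -1.10 ± 0.26, q = 0.00159). Csrnp1 had 32.2 FPKM in cKO and 76.0 FPKM in WT cells (log2 fold -1.24 ± 0.30, q = 0.00159). The least abundant of the group, Ier5, had 8.59 FPKM in cKO and 14.8 FPKM in WT cells (log2 fold -0.79 ± 0.32, q = 0.0258). Of the KLF and MYC factors, Klf6 (53.96 FPKM in cKO, 93.3 FPKM in WT, log2 fold -0.79 ± 0.36, q = 0.0424) and Myc (46.98 FPKM in cKO, 95.1 FPKM in WT, log2 fold -1.02 ± 0.37, q = 0.00417) fell. Klf4, a factor of epithelial differentiation, had 381.2 FPKM in cKO and 903.5 FPKM in WT cells and did not pass (q = 0.129).

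Feedback inhibitors end the response by removing phosphates, degrading mRNA or blocking NF-kappaB and cytokine signals, and 2 of 6 fell. Ppp1r15a, which directs a phosphatase to the translation factor eIF2, had 78.6 FPKM in cKO and 170.6 FPKM in WT cells (log2 fold -1.12 ± 0.36, q = 0.00159). Nfkbiz, an atypical inhibitor of NF-kappaB proteins, had 17.4 FPKM in cKO and 30.5 FPKM in WT cells (log2 fold -0.81 ± 0.33, q = 0.0163). Dusp1, a MAP kinase phosphatase, missed the threshold with 551.7 FPKM in cKO and 1396 FPKM in WT cells (log2 fold -1.34 ± 0.51, q = 0.0584). Zfp36, which marks AU-rich mRNAs for decay, had 664.9 FPKM in cKO and 1414 FPKM in WT cells (q = 0.127). Of the BTG and TOB proteins, which recruit deadenylases and slow proliferation, Btg2 (170.3 FPKM in cKO, 461.0 FPKM in WT, log2 fold -1.44 ± 0.44, q = 0.00295) and Tob1 (53.3 FPKM in cKO, 134.6 FPKM in WT, log2 fold -1.34 ± 0.32, q = 0.00159) fell. Of the GADD45 growth arrest genes, only Gadd45g fell (23.5 FPKM in cKO, 43.7 FPKM in WT, log2 fold -0.89 ± 0.29, q = 0.0244). Rhob, a stress-induced small GTPase, had 42.1 FPKM in cKO and 144.6 FPKM in WT cells (log2 fold -1.78 ± 0.29, q = 0.00159). The matrix proteins Ctgf and Cyr61 had values 2.16-fold and 2.07-fold smaller in cKO cells without passing the test.

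The count of called members depends on which table tested the same groups. In the authors' joint table, with q adjusted over all 21 comparisons together, 30 members were lower in cKO than in WT cells and none higher. The 11 members called there and not in the telogen table were Fosb, Jun, Junb, Jund, Egr1, Nr4a3, Klf4, Dusp1, Zfp36, Ctgf and Cyr61. With a normal p computed from the deposited statistic, 10 were lower, and Fosl2, Atf3, Egr2, Nr4a2, Ier5, Klf6, Myc, Nfkbiz and Gadd45g no longer passed. For neither the 30 nor the 10 was the share of all genes called in the same way computed.

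In anagen, iKO cells differed from Het cells in both directions. In the authors' deposited anagen table, 4 of the 38 tested members were higher and 11 lower in iKO than in Het cells, against 5.18% higher and 5.08% lower among all 13716 genes tested. Nr4a3 was not tested there. The members' median of log2((FPKM + 1) ratio) was -0.21, against -0.02 over all tested genes. The cell cycle list was higher in anagen iKO cells too, in all of its 12 genes, with a summed 363.0 FPKM in iKO and 104.3 FPKM in Het cells of the joint table. The part of the number of cycling cells in these results was not tested.

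The 4 members that rose in anagen iKO cells were Maff, Egr2, Egr3 and Ier3. Ier3 had 96.7 FPKM in iKO and 51.2 FPKM in Het cells (log2 fold 0.92 ± 0.20, q = 0.00106). Maff had 10.5 FPKM in iKO and 5.19 FPKM in Het cells (log2 fold 1.02 ± 0.30, q = 0.0028). The pair of EGR factors moved with them. Egr2 had 22.001 FPKM in iKO and 12.8 FPKM in Het cells (log2 fold 0.78 ± 0.25, q = 0.00106), and Egr3 had 18.8 FPKM in iKO and 12.5 FPKM in Het cells (log2 fold 0.60 ± 0.26, q = 0.018). Egr1, the best known member of that family, had 159.9 FPKM in iKO and 183.2 FPKM in Het cells (q = 0.648).

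The lowest fold in anagen belonged to Gadd45g, with 15.9 FPKM in iKO and 53.2 FPKM in Het cells (3.34-fold lower, log2 fold -1.74 ± 0.24, q = 0.00106). Among AP-1 genes, Atf3 (81.4 FPKM in iKO, 137.4 FPKM in Het) was 1.69-fold lower and Fosl2 (27.1 FPKM in iKO, 45.6 FPKM in Het) 1.68-fold lower, each with q = 0.00106. Nr4a1 had 44.2 FPKM in iKO and 71.1 FPKM in Het cells (log2 fold -0.69 ± 0.22, q = 0.00106). These 4 genes also fell in second telogen. Dusp1 had 158.7 FPKM in iKO and 279.9 FPKM in Het cells (log2 fold -0.82 ± 0.22, q = 0.00106), and Ctgf had 43.7 FPKM in iKO and 81.3 FPKM in Het cells (log2 fold -0.89 ± 0.23, q = 0.00106). Ppp1r15a (12.9 FPKM in iKO, 20.99 FPKM in Het, q = 0.00434) and Tob1 (29.5 FPKM in iKO, 45.7 FPKM in Het, q = 0.00647) were 1.62-fold and 1.55-fold lower. Rhob (48.5 FPKM in iKO, 72.6 FPKM in Het, log2 fold -0.58 ± 0.22, q = 0.0159), Klf4 (115.6 FPKM in iKO, 171.5 FPKM in Het, log2 fold -0.57 ± 0.25, q = 0.0278) and Csrnp1 (5.51 FPKM in iKO, 8.38 FPKM in Het, log2 fold -0.61 ± 0.28, q = 0.0417) fell by less. Fos had 378.6 FPKM in iKO and 502.1 FPKM in Het cells and did not pass the test (q = 0.238). With a normal p from the deposited statistic, 9 of the 15 calls were made, and Egr3, Csrnp1, Klf4, Ppp1r15a, Tob1 and Rhob no longer passed.

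**Figure D2:**
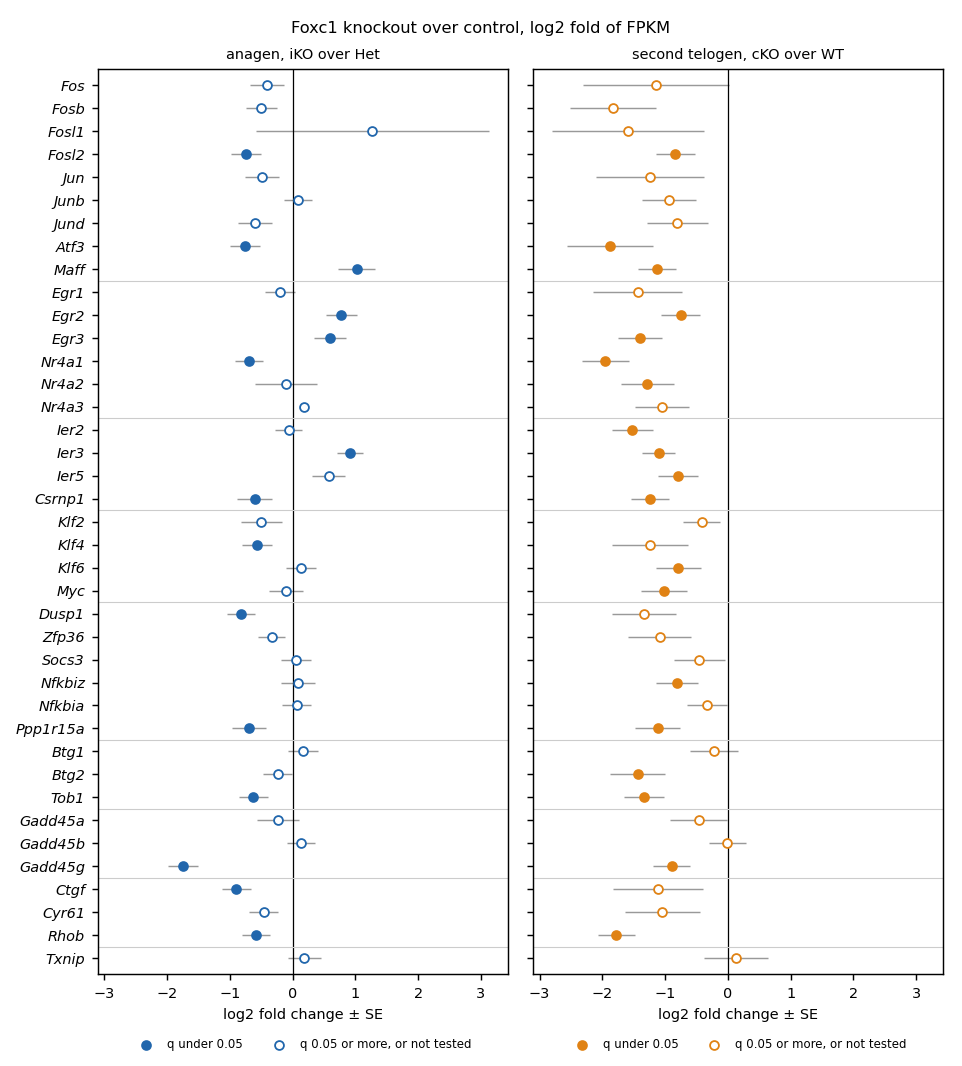
Log2 fold of FPKM, knockout over control, for each member in anagen (left, iKO over Het) and in second telogen (right, cKO over WT), with bars of 1 SE and filled points at the authors' q below 0.05. In second telogen 19 members are filled and all of them lie left of 0, while in anagen 4 filled points lie right of 0 and 11 left of it.

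The tables of both stages share no library, so the knockout effects could be set against each other gene by gene. The same 8 members fell in both tables, 72.7% of those lower in anagen and 42.1% of those lower in second telogen: Fosl2, Atf3, Nr4a1, Csrnp1, Ppp1r15a, Tob1, Gadd45g and Rhob. Over all genes, 167 fell in both tables, 23.96% of those lower in anagen and 42.9% of those lower in second telogen. All 4 members that rose in anagen iKO cells fell in second telogen cKO cells, against 13 of the 711 genes that rose in anagen (1.83%). The effect in second telogen less that in anagen was tested as a z of the difference of both log2 folds, with q from a Benjamini-Hochberg adjustment over the 12939 genes that had both. It was lower in second telogen for 5 of 38 members and higher for none, against 0.271% lower and 0.386% higher among all genes. These were Maff (difference -2.14 ± 0.42, q = 0.000201), Ier3 (-2.02 ± 0.33, q = 1.04e-06), Egr3 (-2.00 ± 0.43, q = 0.00149), Egr2 (-1.53 ± 0.40, q = 0.0226) and Ier2 (-1.46 ± 0.39, q = 0.0305). With the larger of 2 estimates of the SE, Ier2 no longer passed (q = 0.117). In mm9 as deposited, Ier3 lies on chromosome 17 from 35958657 to 35959856, Maff on chromosome 15 from 79178107 to 79189506, Egr3 on chromosome 14 from 70477251 to 70482420, Egr2 on chromosome 10 from 67000616 to 67004936 and Ier2 on chromosome 8 from 87185229 to 87186751. Of the 5, Ier2 was the only one with no change past the threshold in anagen, where it had 133.5 FPKM in iKO and 139.3 FPKM in Het cells (q = 0.926). In 36 of 38 members the difference was negative, the others being Gadd45g (0.85 ± 0.38, q = 0.895) and Klf2 (0.08 ± 0.44, q = 1). Driver, tamoxifen, control genotype, strain, age and sex differ between both tables together with stage, so that their parts in these differences cannot be told apart.

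The iKO cells of second telogen did not share the low levels of cKO cells. Foxc1 was lower than in WT cells in both, but it was higher in iKO than in cKO cells of the joint table (3.17 against 1.66 FPKM, q below 0.05). The part of this difference in the members' levels was not tested. In the authors' joint table, 29 of 39 members were higher in iKO than in cKO cells and none lower. Among all 13711 genes tested, 7.53% were higher and 7.35% lower. All 39 members had the larger value in iKO cells, 35 of them with an unadjusted Cuffdiff p below 0.05. How many of all genes had larger values, with or without that p, was not computed. The members' median of log2((FPKM + 1) ratio) was 1.30, against -0.03 over all tested genes. Nr4a1 had 884.8 FPKM in iKO and 125.3 FPKM in cKO cells (7.06-fold, log2 fold 2.82 ± 0.35, q = 0.000444). Fosb had 2003 FPKM in iKO and 331.0 FPKM in cKO cells (6.05-fold, log2 fold 2.60 ± 0.65, q = 0.00254), and Atf3 had 2077 FPKM in iKO and 498.4 FPKM in cKO cells (4.17-fold, log2 fold 2.06 ± 0.55, q = 0.000444). The EGR, NR4A, IER, CSRNP, KLF and MYC genes were all called. The 10 members that did not pass were Fos, Jun, Jund, Socs3, Btg1, the 3 GADD45 genes, Ctgf and Txnip.

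Set against WT cells of second telogen, which are also the controls of the cKO comparison, iKO cells had 10 higher members and no lower one, against 7.01% higher and 5.88% lower among all 13714 genes tested. At an unadjusted Cuffdiff p below 0.05, 13 had larger and 2 had smaller values, and the share of all genes at that p was not computed. The median was 0.26, against -0.02 over all tested genes. Of the 12 cell cycle genes, 11 were higher in iKO than in WT cells, with summed values of 77.2 FPKM in iKO and 20.4 FPKM in WT cells. Nfkbiz had 72.1 FPKM in iKO and 31.8 FPKM in WT cells (2.27-fold, log2 fold 1.18 ± 0.29, q = 0.000444), and Klf2, a quiescence-associated KLF factor in other cell types, had 34.0 FPKM in iKO and 17.9 FPKM in WT cells (1.89-fold, log2 fold 0.92 ± 0.23, q = 0.000444). All 3 NR4A genes were higher, with Nr4a1 at 884.8 FPKM in iKO and 483.8 FPKM in WT cells (1.83-fold, q = 0.0305). Maff, Egr3, Klf6, Nfkbia and Txnip made up the rest. The Fos value was 1.52-fold larger in iKO cells without passing the test (q = 0.662). This count changes with how a call is made. When the deposited p was adjusted within the comparison 6 members passed, at q below 0.01 it was 5, and with a normal p from the statistic it was 3. Beside Foxc1, iKO and WT cells differ in driver, tamoxifen, strain, age and sex, as do iKO and cKO cells, so that these cannot be told apart.

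**Figure D3:**
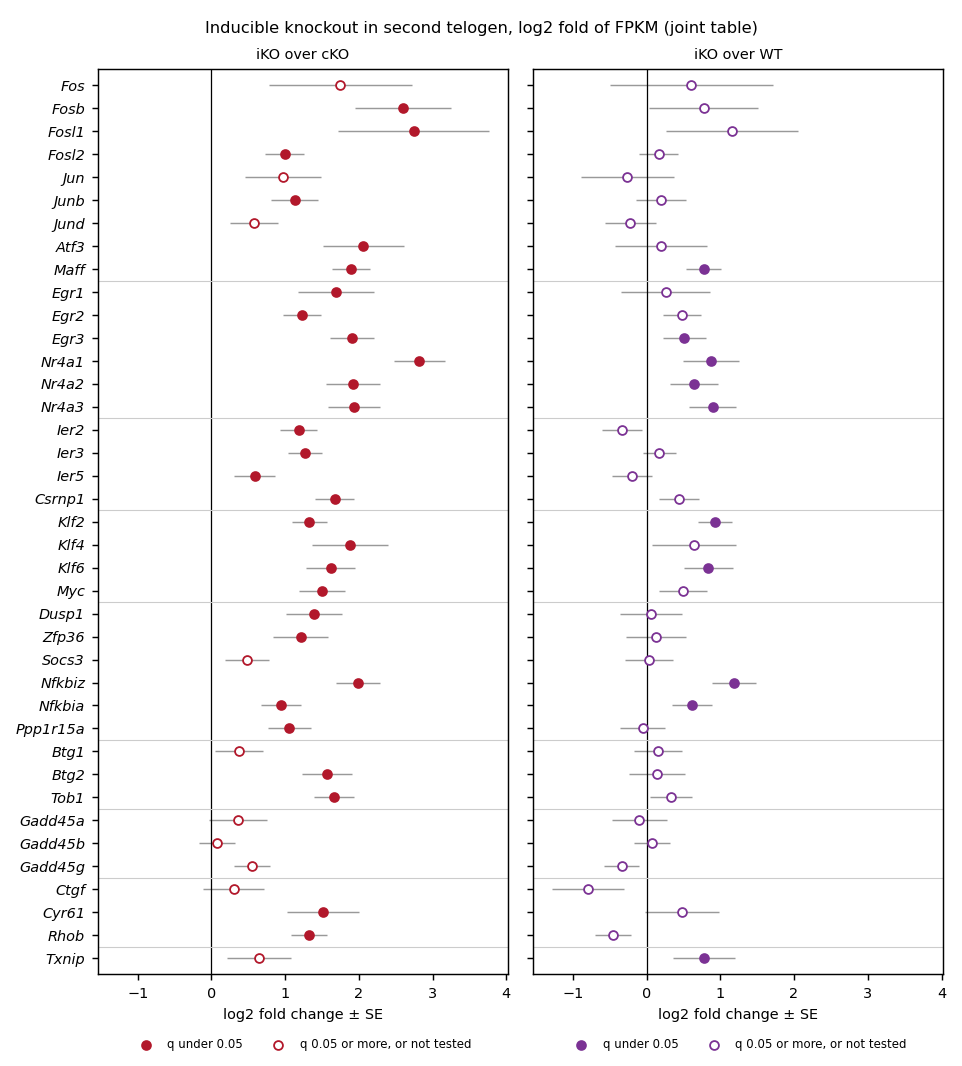
Log2 fold of FPKM for each member in iKO cells of second telogen, over cKO cells (left) and over WT cells (right), from the authors' joint table, with bars of 1 SE and filled points at q below 0.05. All 39 points lie right of 0 on the left, 29 of them filled, while on the right 10 are filled and 9 lie left of 0.

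Members were higher in second telogen than in anagen in knockout cells and in control cells. From the authors' joint table, iKO cells of second telogen had 37 members higher than iKO cells of anagen and none lower, against 17.6% higher and 15.5% lower among all 13787 genes tested. WT cells of second telogen had 34 members higher than Het cells of anagen and none lower, against 13.5% higher and 11.9% lower among 13932 genes tested. At an unadjusted Cuffdiff p below 0.05, 37 members had larger and 1 a smaller value in iKO cells. In controls, 35 had larger and 1 a smaller value at that p. The share of all genes at that p was not computed for either pair. The medians were 2.61 in iKO and 2.14 in control cells, against 0.01 and 0.00 over all tested genes. Beside this, all 12 cell cycle genes were lower in second telogen in both pairs, with medians of -2.07 in iKO and -1.89 in control cells. Ages differ with stage in both pairs, and in the control pair strain, genotype and sex differ as well.

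The low Nr4a3 was among the largest folds, with 11.7 FPKM in second telogen iKO and 0.235 FPKM in anagen iKO cells (log2 fold 5.64 ± 0.60, q = 0.000444). In controls it had 6.32 FPKM in second telogen WT and 0.208 FPKM in anagen Het cells (log2 fold 4.93 ± 0.62, q = 0.000444). Its level was thus below 1 FPKM in both anagen groups. Abundant members differed by an order of magnitude too. Fosb had 2003 FPKM in second telogen iKO and 70.9 FPKM in anagen iKO cells (28.2-fold, q = 0.000444), and 1173 FPKM in second telogen WT and 100.3 FPKM in anagen Het cells (11.7-fold, q = 0.000444). Atf3 had 2077 FPKM in second telogen iKO and 76.9 FPKM in anagen iKO cells (27.0-fold, q = 0.000444), and 1816 FPKM in second telogen WT and 129.7 FPKM in anagen Het cells (log2 fold 3.81 ± 0.44, q = 0.000444). The matrix gene Ctgf was 18.5-fold higher in iKO and 17.3-fold higher in control cells. Zfp36 and Socs3, a feedback inhibitor of JAK signalling, were higher in both pairs as well, by 16.5-fold and 9.57-fold in iKO and by 12.0-fold and 9.73-fold in control cells. The members that did not pass were Gadd45a and Gadd45b in both pairs, and Fosl1, Fosl2 and Gadd45g in the control pair. Gadd45b had 39.01 FPKM in second telogen iKO and 54.0 FPKM in anagen iKO cells (q = 0.0727).

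In the Shh-Het libraries, with 1 library each and hence no test, 35 members were at least 2-fold lower in anagen II than in first telogen and 1 was at least 2-fold higher, against 20.1% and 10.4% of the 13592 genes with at least 1 FPKM in either library. The median was -2.13, against -0.12 over those genes. Fosb had 20.1 FPKM in anagen II and 910.5 FPKM in first telogen (45.2-fold lower), and Klf2 had 6.37 FPKM in anagen II and 149.3 FPKM in first telogen (23.4-fold lower). Gadd45a was the exception, with 18.4 FPKM in anagen II and 5.65 FPKM in first telogen (3.26-fold higher). Ier5, Gadd45b and Gadd45g differed by less than 2-fold. The level of Klf2 in first telogen lay above that in the 3 second telogen groups, where it had between 13.5 and 34.0 FPKM. Beside these values, the summed FPKM of 10 fibroblast markers was 1194 in anagen II and 2391 in first telogen, that of 9 immune markers 34.9 in anagen II and 308.8 in first telogen, and Vwf, an endothelial gene, had 0.38 FPKM in anagen II and 16.7 FPKM in first telogen. Their part in the members' levels was not tested.

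**Figure D4:**
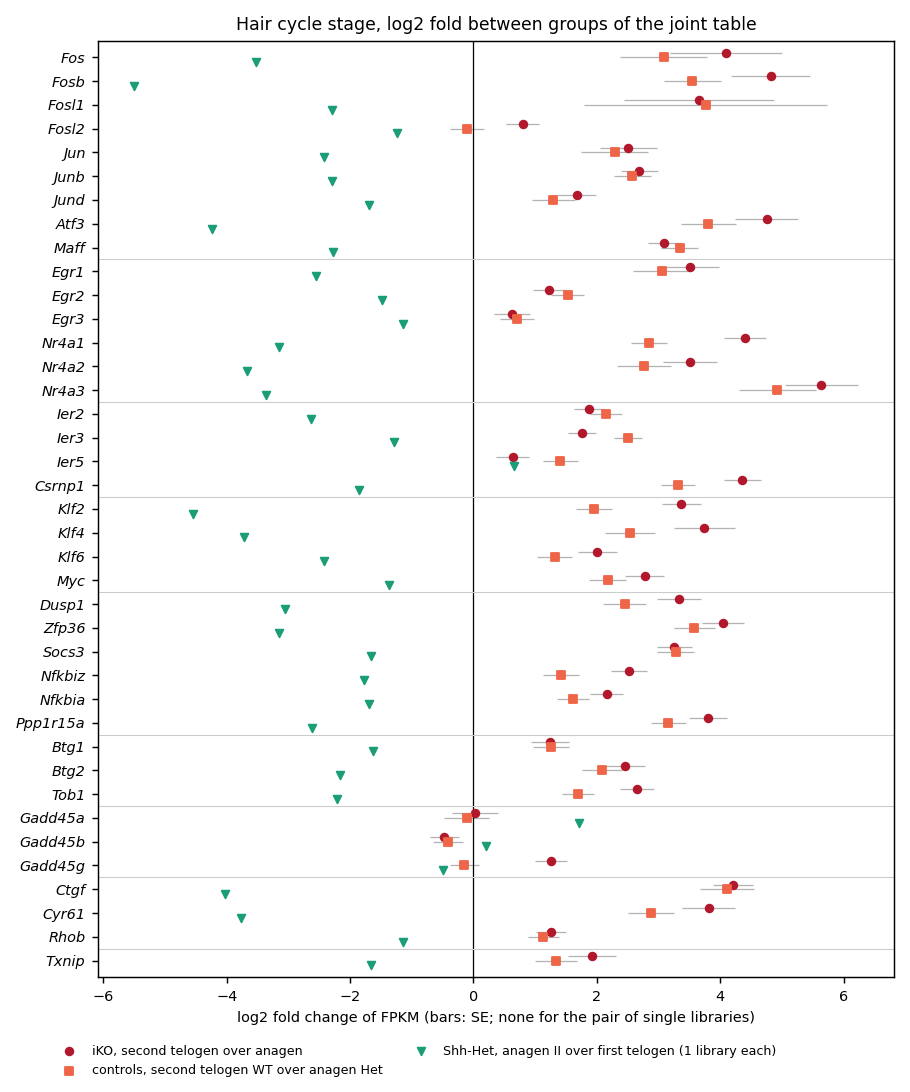
Log2 fold of FPKM between hair cycle stages for each member, from the authors' joint table: second telogen over anagen in iKO cells (red circles) and in controls (orange squares), with bars of 1 SE, and anagen II over first telogen in the Shh-Het pair (green triangles, 1 library each). In iKO cells 37 members and in controls 34 members are called, all right of 0, and 35 green triangles are at least 2-fold to the left of 0.

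The genes that pass the signal on to the members were called in part. Of 19 upstream transcription factors and cofactors, among them the SRF, CREB, TEAD and YAP genes, none was called in anagen, also at an unadjusted Cuffdiff p below 0.05 (0 genes), and 1 in second telogen cKO cells. That was Srf, with 25.3 FPKM in cKO and 42.4 FPKM in WT cells (1.67-fold lower, q = 0.0308). Srf was also lower in second telogen iKO cells, with 24.2 FPKM in iKO and 44.1 FPKM in WT cells of the joint table (1.83-fold lower, q = 0.000444). Against the same WT cells, 10 members were called higher and none lower, and 9 members had the smaller value in iKO cells. The part of Srf in the members' levels was not tested. In the stage comparisons 8 of the 19 upstream factors were higher and 1 lower in iKO cells, and 7 higher and 1 lower in controls. Tead4 stood at 6.05 FPKM in second telogen iKO against 2.45 FPKM in anagen iKO cells, and at 7.79 FPKM in second telogen WT against 1.90 FPKM in anagen Het cells. Of 18 upstream kinases, Map3k1, a stress-activated kinase of the JNK pathway, was lower in both knockouts, with 16.8 FPKM in iKO against 30.3 FPKM in Het anagen cells (q = 0.00106) and 17.5 FPKM in cKO against 33.9 FPKM in WT telogen cells (q = 0.00531). In the median of log2((FPKM + 1) ratio), kinases stood at 0.01 in anagen and -0.06 in second telogen.

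A list of 40 other genes induced by serum, ERK or stress signals gave 7 higher and 1 lower of 39 tested in anagen iKO cells, and 2 higher and 13 lower of 40 in second telogen cKO cells. In anagen the ERK targets Etv4 (17.2 FPKM in iKO, 4.86 FPKM in Het, 3.53-fold higher, q = 0.00106) and Dusp6 (41.2 FPKM in iKO, 13.8 FPKM in Het, 2.98-fold higher, q = 0.00106) rose. In second telogen Ptgs2, which makes prostaglandins, had 7.62 FPKM in cKO and 20.3 FPKM in WT cells (2.67-fold lower, q = 0.00159). Ptgs2 was also far higher in second telogen than in anagen, with 33.7 FPKM in second telogen iKO against 0.855 FPKM in anagen iKO cells and 21.1 FPKM in second telogen WT against 1.30 FPKM in anagen Het cells. Of this list 28 were higher and 2 lower between the stages in iKO cells, and 26 higher and 1 lower in controls. The YAP and SRF target list gave 5 higher and none lower of 11 tested in anagen iKO cells, Thbs1, Axl and Tpm1 among them, and no call in second telogen cKO cells, where 2 had smaller and 0 larger values at an unadjusted Cuffdiff p below 0.05. Ctgf and Rhob, the members of that kind called in anagen, fell there.

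Other stress programmes were followed through their own lists. Of 11 heat shock genes, 2 were higher and 2 lower in anagen iKO cells, and only the chaperone gene Dnaja1 was called in second telogen cKO cells. Dnaja1 differed in direction, with 135.8 FPKM in iKO and 34.6 FPKM in Het anagen cells (q = 0.00106) and 72.9 FPKM in cKO and 285.1 FPKM in WT telogen cells (q = 0.0413). In second telogen iKO cells 4 of the 11 heat shock genes were lower than in WT cells and none higher. Between the stages, 2 were higher and 6 lower in second telogen than in anagen iKO cells, and 3 higher and 3 lower in controls. Of 10 p53 target genes, 1 was higher and 1 lower in anagen iKO cells, and in second telogen cKO cells Cdkn1a alone was called, with 88.9 FPKM in cKO and 184.9 FPKM in WT cells (q = 0.00159). In second telogen iKO cells 3 of the 10 were higher than in WT cells and none lower, and Cdkn1a went the other way, with 284.9 FPKM in iKO and 192.1 FPKM in WT cells (q = 0.048). None of 8 unfolded protein response genes was called by the authors' Cuffdiff test in either 2-group table, and at an unadjusted p below 0.05 there was 1 with a larger value in anagen iKO cells and 1 with a smaller value in second telogen cKO cells.

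Levels of other cell types were compared in the same tables. In anagen 5 of 10 fibroblast markers were lower and 1 higher in iKO cells, with summed values of 167.9 FPKM in iKO and 296.9 FPKM in Het cells of the joint table, and 5 of 9 hair shaft and matrix markers were lower. In second telogen the fibroblast sum was 291.9 FPKM in cKO, 234.0 FPKM in iKO and 405.8 FPKM in WT cells, and the immune sum was 94.9 FPKM in cKO, 123.8 FPKM in iKO and 91.5 FPKM in WT cells. The fibroblast sums hide opposite changes between stages. In second telogen WT over anagen Het cells, 3 fibroblast markers were higher and 5 lower (median -0.90). Col3a1 had 0.38 FPKM in WT and 28.7 FPKM in Het cells, and Mmp2 had 95.7 FPKM in WT and 19.9 FPKM in Het cells. Suprabasal and sebaceous markers moved with stage, with summed values of 5306 FPKM in cKO, 3976 FPKM in iKO and 3409 FPKM in WT cells of second telogen against 1060 FPKM in iKO and 632.6 FPKM in Het cells of anagen. The immune sum in anagen was 29.4 FPKM in iKO and 19.0 FPKM in Het cells. Hair shaft and matrix markers ran the other way, at 33.1 FPKM in cKO, 24.8 FPKM in iKO and 25.2 FPKM in WT cells of second telogen and 172.8 FPKM in iKO and 214.0 FPKM in Het cells of anagen, with Krt33b and Krt81 listed at 0 in some telogen groups. Of the endothelial and pericyte markers, Cdh5 and Rgs5 were listed at 0 in some telogen groups, and of the melanocyte markers Sox10 stayed under 1 FPKM in every group. The part of these cells in the members' levels was not tested.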

How the data were processed

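Expression of 39 immediate early and stress response genes was taken from 3 deposited tables (anagen, second telogen, and a joint table of 21 comparisons over 7 groups). Per the submitters' processing notes, the tools were TopHat with Cufflinks and Cuffdiff on build mm9, with no version, and the settings of these tools are not given in the sources used here. Values in FPKM were made by the authors, 1 pooled value per group, and tables were scaled separately (on the log2 scale the joint values differ by -0.08 from those for anagen and by 0.06 from those for telogen). The log2 folds were deposited by the authors as the ratio of both FPKM values. The test statistic is a score deposited by the authors. The p-value and q-value are the authors' own, per the file headers, with a smallest p of 5e-05, and q in the joint table was adjusted over all comparisons together. No counts or depths are given, so sequencing depth is unknown. Each replicated library is labelled as a mouse with a replicate number, and p-values measure only the spread between libraries as the authors' test models it. For the same cKO and WT libraries the authors' Cuffdiff q differed between tables, as for Fosb with 0.0778 in the telogen and 0.000444 in the joint table.

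Calls used the authors' q below 0.05. Counts at an unadjusted p below 0.05 were made for the members and the other lists only, not for all genes. The SE is log2 fold over statistic, which is approximate. The test of the difference of both knockout effects used SciPy 1.17.1 and left out genes whose deposited p was 0.05 or more while the normal p was below it. It was run on simulated effects drawn with the same SEs that it uses, which cannot show whether these SEs are right for the data. List medians used a pseudocount of 1 FPKM, which understates changes of low genes. The unreplicated pair was read at 2-fold with at least 1 FPKM in either library. Members, the 15 other lists (196 genes) and tests were chosen with earlier results of these data known. Members called in either 2-group table or with differing effects are given in full, and of other lists up to 3 called genes by lowest p. Trdc and Krt85 had no row. Fosl1, Gadd45a and Txnip overlap another gene's locus, and strandedness is not given, so their values are uncertain. Promoters are RefSeq, GRCm38.p6, while the tables use mm9. They were matched by symbol. Promoters of Fosl1, Egr1, Egr3, Ier2, Myc, Nfkbiz and Ctgf were not used here.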

Additional observations from a re-analysis of the deposited data

Results flagged for a closer look

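The knockout effect differed between second telogen (cKO over WT) and anagen (iKO over Het) for 5 members. This came from a test of the difference of both log2 folds, with Benjamini-Hochberg adjustment over 12939 genes. Driver, tamoxifen, control genotype, strain, age and sex differ between both comparisons together with stage and cannot be told apart. The effect in second telogen cKO cells less that in anagen iKO cells was -2.14 for Maff, -2.02 for Ier3, -2.00 for Egr3, -1.53 for Egr2 and -1.46 for Ier2. Maff, Ier3, Egr3 and Egr2 were higher than in Het cells in anagen and lower than in WT cells in second telogen, and Ier2 was called in second telogen only. The difference of Ier2 did not pass with the larger of 2 estimates of the SE (q = 0.117).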

How the results depend on the processing

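No paired analysis was possible because each table holds 1 pooled value per group, and for the same reason no replicate could be left out. With a normal p from the deposited statistic, the calls among members numbered 9 in anagen iKO over Het, 10 in second telogen cKO over WT and 3 in second telogen iKO over WT. At q below 0.01 they numbered 12 in cKO over WT and 5 in iKO over WT. The joint table gave 30 calls for cKO over WT, and adjustment within the comparison gave 6 for iKO over WT. These counts, against 15, 19 and 10 as reported, kept their directions, and why the tables differ was not tested. The share of all genes called was not computed for these alternatives. The other 23 recomputed counts stayed within 1.5 times their reported value, and the 28 recomputed medians (pseudocounts of 0.1 and 5 FPKM, a minimum of 1 FPKM, centring on all genes) kept their sign and moved by little. The difference of both knockout effects of Ier2 was not called with the larger SE (q = 0.117), while Maff, Ier3, Egr3 and Egr2 passed in each of the 3 alternatives. Over all genes the number with such a difference was 85, against 133 from the joint table, 45 with the larger SE and 129 with all genes kept. No result changed direction in any alternative run. Without values per library, precision rests on the authors' model, and members' median SE was 0.24 in anagen and 0.39 in second telogen.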
